A study of Mus musculus with 6 samples.

Results

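The clustered protocadherins are a family of neuronal cell surface proteins encoded side by side on mouse chromosome 18, in an alpha, a beta and a gamma cluster. Members were all entries of the count table whose symbol is Pcdha, Pcdhac, Pcdhb, Pcdhga, Pcdhgb or Pcdhgc followed by a number, and the rule used no measured value. It found 58 of 24594 entries, 14 in the alpha cluster, 22 in the beta cluster and 22 in the gamma cluster. They span 912 kb of the mm10 assembly, from the start of Pcdha1 at 36930285 to the end of Pcdhgc5 at 37841873 (RefSeq annotation of GRCm38.p6, 1-based). The alpha cluster holds 12 alternate members and the C-type members Pcdhac1 and Pcdhac2, and the gamma cluster holds 12 members of type A, 7 of type B and the C-type members Pcdhgc3, Pcdhgc4 and Pcdhgc5. RefSeq lists Pcdhgb8 as a transcribed pseudogene.

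Nuclear RNA was sequenced from mouse cerebella in 6 libraries, 3 labelled WT, with the genotype Ezh1(wt/wt);Neurod1-Cre, and 3 labelled cKO, homozygous for a conditional allele of Ezh1 and with the same Cre. All mice were 7 months old, and both groups carry Neurod1-Cre, a Cre recombinase that bears the name of Neurod1, a differentiation factor of granule cells. Ezh1 is 1 of the methyltransferases of the Polycomb complex PRC2, which sets H3K27me3, a chromatin mark found on silent genes, and the study concerns the need of mature neurons for lasting maintenance of that mark. Nuclei were fixed with formaldehyde and sorted for NeuN, the neuronal protein encoded by Rbfox3. The sort is stated for NeuN and not for Cre activity, so nuclei in which the Cre was not active may be among those kept. The labels state neither the deleted part of Ezh1 nor how the Cre was placed. Nor do they tie each library to an animal of its own, so the p-values reflect the spread between these samples, which may be technical in part.

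Each alternate alpha and gamma member has its own promoter and a large first exon, the variable exon, that encodes the whole extracellular part, the transmembrane segment and a short piece of the inside of the protein. This exon is spliced to constant exons shared by all members of the cluster, which encode the common cytoplasmic end, whereas a beta member is a gene of a single exon with no constant part. A neuron switches on a small random set of alternate promoters, by looping of a distant enhancer to promoters that bind CTCF and cohesin and are free of DNA methylation, while C-type promoters are active in most neurons of a type. The proteins bind to copies of themselves on other membranes, and neurites of 1 neuron use this to recognise and avoid each other, as in Purkinje cell dendrites.

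Granule cell markers were prominent, with Gabra6, a GABA-A receptor subunit of granule cells, at 159 ± 8.77 CPM in WT and 157 ± 5.54 CPM in cKO (means ± SD, n = 3; CPM are counts per 1e+06 of the TMM-scaled library total). Libraries held 6340236 to 8284768 counts, so before TMM scaling 1 CPM stood for 6.34 to 8.28 counts. Ezh1 was at 71.0, 75.7 and 83.3 CPM in WT and 52.5, 51.0 and 55.6 CPM in cKO, and each cKO library lay below each WT library (log2 fold change -0.53, 95% interval -0.73 to -0.33, adjusted p = 0.00672). Its call was lost without WT replicate 3 (adjusted p = 0.115) and without cKO replicate 1 (0.0833). Replicate 1 of each genotype stood apart by Xist, which coats the silent X chromosome of female cells, with 811 and 831 CPM against 1.39 to 4.46 CPM in the other libraries. All adjusted p-values are Benjamini-Hochberg values of edgeR's quasi-likelihood test over 13115 genes, and a gene was called where its value was below 0.05. Among all tested genes, 76 were called (0.579%), of which 42 were higher (0.32%) and 34 lower (0.259%) in cKO.

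No clustered protocadherin was called in either direction by edgeR or limma-voom, nor by DESeq2, which gave an adjusted p to 17 of the 49 tested members only. The filter on low counts kept 49 members, 13 alpha, 14 beta and all 22 gamma, and the smallest adjusted p among them was 0.288, for Pcdhb21. The log2 fold changes of cKO over WT ran from -0.94 to 0.41 with a median of -0.051, beside -0.0060 over all tested genes, and 30 of the 49 were negative (25 with scaling by library size alone), beside 51.2% of all tested genes. Before adjustment, Pcdhb21, Pcdhb22 and Pcdhgb6 had edgeR p-values below 0.05, all lower in cKO, so 3 of 49 members beside 11.9% of all tested genes. The whole 95% interval lay within 2-fold for 43 of the 49 members and for 81.0% of all tested genes. With replicates 2 and 3 only, the median of the members was 0.016 and 24 of 49 were negative, and without cKO replicate 2 the median was -0.13 and 38 of 52 tested members were negative.

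**Figure D1:**
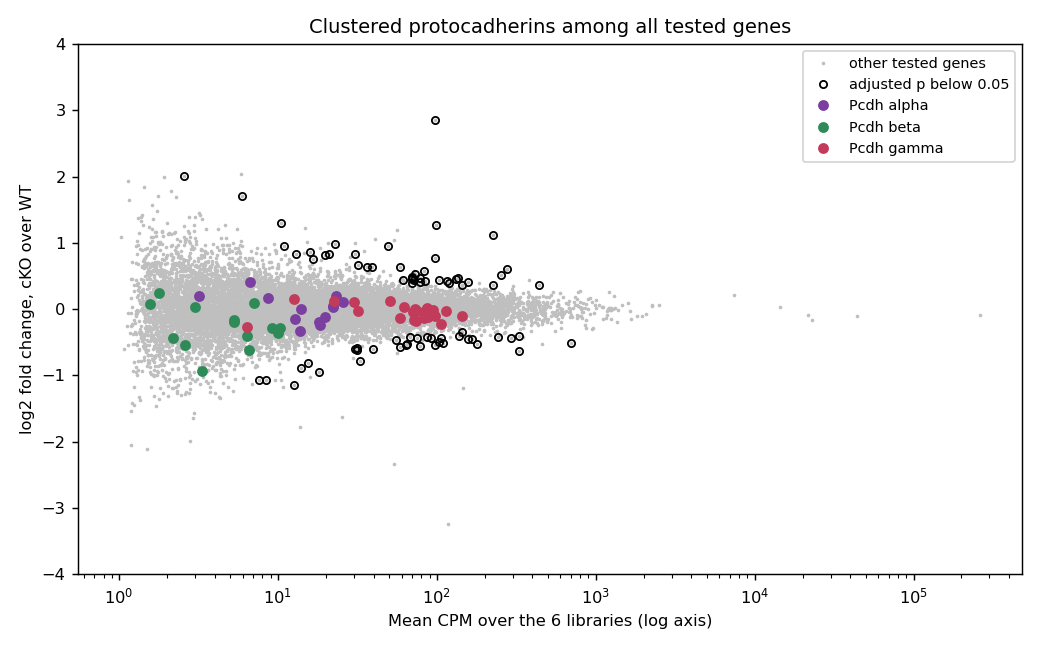
Log2 fold change of cKO over WT against the mean CPM over the 6 libraries (log axis) for 13115 tested genes, with the 49 tested clustered protocadherins in colour and the 76 called genes as open circles. Gamma members lie at higher levels and close to 0, beta members at lower levels with a wider scatter, and no coloured point carries a circle.

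The way reads were counted bears on every member. The variable exons of alpha and gamma members lie in the introns of the members upstream of them, and unspliced transcripts are part of nuclear RNA, so reads in a variable exon cannot be assigned to 1 promoter and their part in the levels was not tested. Use of strand is not given in the sources used here, and exons of annotated opposite-strand genes (GENCODE vM21) overlap exons of 13 members, 4 alpha, 1 beta and 8 gamma, so sense and antisense reads cannot be told apart there. Overlapping windows of 50 bases were taken along each variable exon, or the single exon of a beta member. Windows that recur exactly in another member made up 10.1% to 23.4% of all windows in alternate alpha members. They made up 2.67% to 17.9% in gamma B, 0% to 4.25% in gamma A, 0% to 11.99% in beta members, and 0% in all 5 C-type members. The share of bases that these windows cover was not computed. How reads that map to several members were treated is not given in the sources used here either, so alternate alpha and gamma B levels are the less certain ones.

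Pcdha4 bounds the reads of the constant exons that could have been added to every alpha member. Its counts were 3, 5 and 4 in WT and 0, 1 and 3 in cKO, whereas the other 13 alpha members, which share the same constant exons, had means of 3.19 to 25.9 CPM. RefSeq places the entry Gm37013, a transcript that joins the Pcdha4 variable exon to the gamma constant exons, from 36952648, just before the start of Pcdha4 at 36952689. Gm37013 and the comparable entries Gm38666 and Gm38667, which start beside Pcdha6 and Pcdha7, had 0 counts in all 6 libraries. Pcdha6 itself had 65 to 118 counts per library and Pcdha7 had 71 to 121. Whether reads shared between a member and such an entry were dropped was not tested, and the level of Pcdha4 is uncertain. The lowest gamma count was 35, for Pcdhga1, which in the same way bounds the constant exon reads that every gamma member could hold. The 0 counts of Gm37013 set a tighter bound on reads added to every entry with the gamma constant exons. That holds only if the counting gave Gm37013 those exons, which is not stated in the sources used here.

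Within each cluster, members farther downstream tended to have higher levels, C-type members aside. Levels were compared between genes as CPM per kb of the member's own exon (the variable exon of an alpha or gamma member, the whole gene of a beta member), the mean over the 6 libraries. Among the 12 alternate alpha members, Spearman's rho between chromosome order and level was 0.92 (0.88 to 0.95 in single libraries), and 0.95 without Pcdha4. It was 0.89 over the 22 beta members (0.75 to 0.91) and 0.95 over the 19 alternate gamma members (0.93 to 0.97), and it was 0.98 over the 12 gamma A and 0.86 over the 7 gamma B members taken alone. These values describe the members of 1 locus, which share libraries, and they carry no p. The gradient was present in each of the 3 WT and each of the 3 cKO libraries. In the alpha and gamma clusters, a variable exon farther downstream lies in the introns of more members. The part of unspliced transcripts in the gradient was not tested.

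Pcdha1, the most upstream alpha member, was at 1.34 CPM per kb (0.966 to 1.81 over the libraries) and Pcdha12, the last alternate one, at 10.8 (8.61 to 12.2), 8.09-fold higher. Pcdhb1, at the upstream end of the beta cluster, was at 0.0854 CPM per kb from 0 to 3 counts per library, and Pcdhb22, at the downstream end, was at 2.14 (1.41 to 3.29). Pcdhga1 was at 2.46 CPM per kb (2.08 to 2.97) and Pcdhga12, the last alternate gamma member, at 49.0 (45.6 to 52.6), 19.9-fold higher. The rise was not even from member to member. Of the steps between chromosomal neighbours, the downstream member was higher in all 6 libraries at 4 of 11 alternate alpha steps, 3 of 21 beta steps and 7 of 18 alternate gamma steps, and lower in all 6 at 1, 2 and 3 steps.

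**Figure D2:**
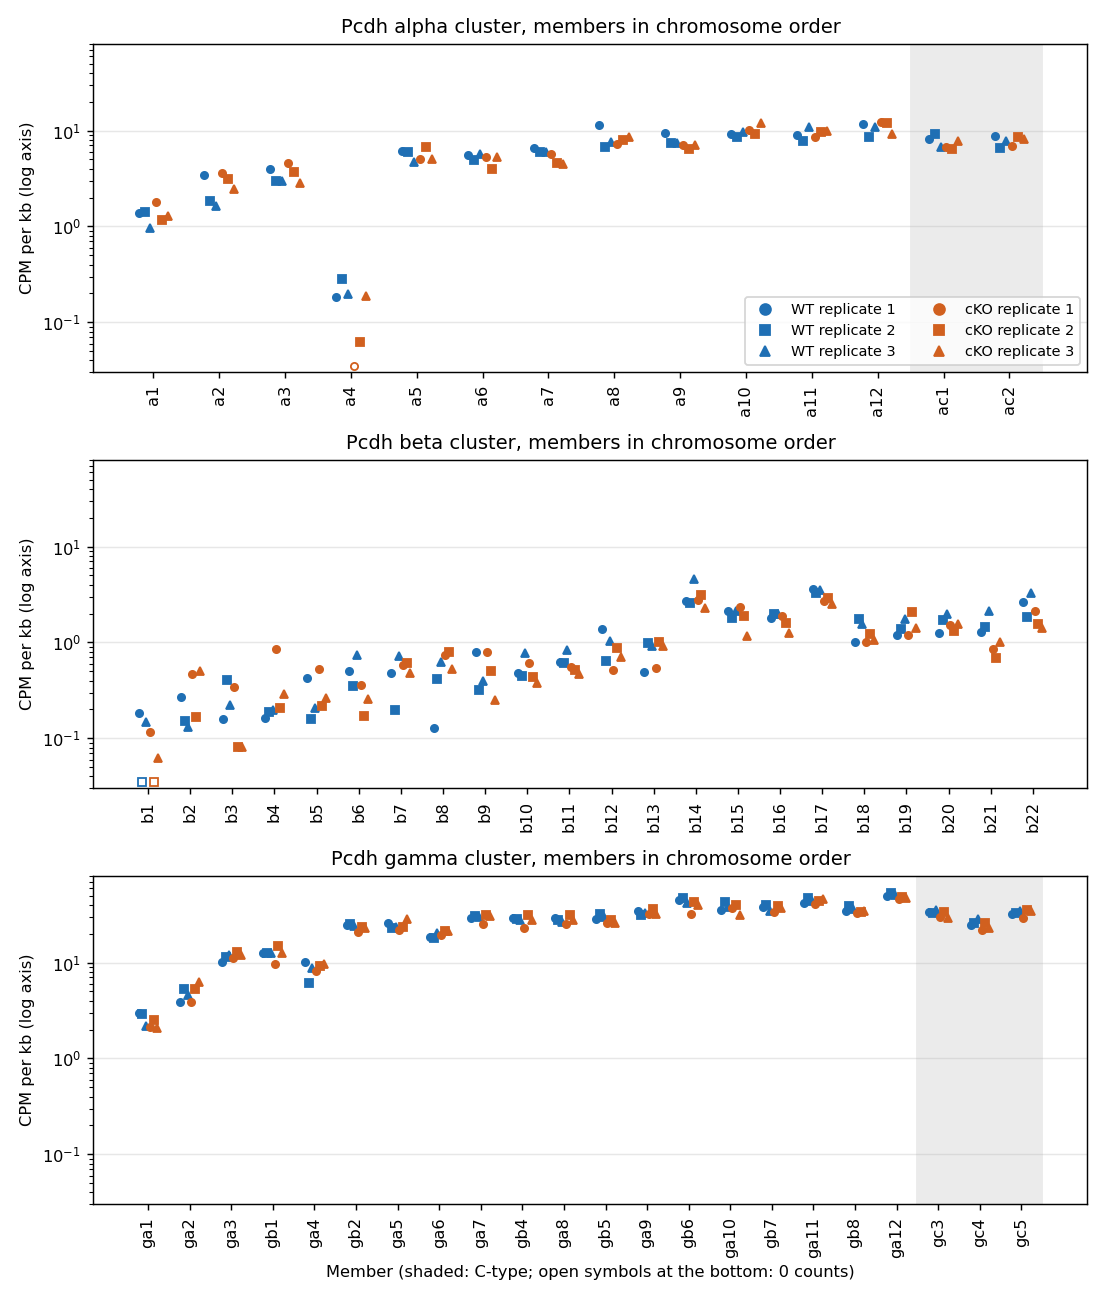
CPM per kb of each member's own exon (log axis) in each library, with members in chromosome order in the alpha, beta and gamma clusters, WT in blue and cKO in orange, replicates by symbol, C-type members on grey and libraries with 0 counts as open symbols at the bottom. Levels of the alternate alpha and gamma members and of the beta members tend to climb from left to right in both genotypes, unevenly. C-type members do not continue the climb, and Pcdha4 lies far below its neighbours.

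Ranked by level instead of position, most neighbouring members could not be told apart. The ranges over the 6 libraries lay apart for 1 of 13 neighbouring ranks in the alpha cluster, Pcdha1 above Pcdha4, for 0 of 21 in the beta cluster and for 3 of 21 in the gamma cluster. The gamma steps were Pcdhga6 above Pcdhgb1, Pcdhga3 above Pcdhga4 and Pcdhga2 above Pcdhga1. Pcdha12 led the alpha cluster, followed by Pcdha10 at 9.73 and Pcdha11 at 9.28 CPM per kb. Pcdhb17 at 3.09 and Pcdhb14 at 3.01 CPM per kb led the beta cluster, with Pcdhb22 next. The spread over the libraries was wider where counts were lower, with a median coefficient of variation of 34.0% in the beta cluster, 14.4% in the alpha and 7.93% in the gamma cluster, where counting error alone gives 24.4%, 9.49% and 4.42%.

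The gamma cluster held most of the family's counts. Of all counts of the 58 members, 82.7% to 85.4% of a library were gamma, 10.3% to 12.6% alpha and 3.73% to 5.60% beta, while own exons were 2382 to 2853 bases long in the alpha, 2499 to 2961 in the gamma and 2340 to 5271 in the beta cluster. Median levels were 28.2 CPM per kb for the gamma, 6.52 for the alpha and 0.707 for the beta cluster. All 58 members summed to 1871, 1882 and 1877 CPM in WT and 1686, 1888 and 1797 CPM in cKO. The WT sums lay close together and cKO replicate 2 lay above all of them while cKO replicates 1 and 3 lay below, so the groups overlapped (1877 ± 5.76 against 1790.3 ± 101 CPM, SD, n = 3, a difference of -4.61%). In bulk nuclei, fewer cells that use a member and less of its RNA per cell cannot be told apart.

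The 5 C-type members were all tested and none was called. Their median log2 fold change was -0.13, 4 of 5 were negative (3 of 5 with scaling by library size alone), and each 95% interval lay within 2-fold. Per kb, Pcdhgc3 at 32.5, Pcdhgc4 at 24.9 and Pcdhgc5 at 33.3 CPM lay within the range of the alternate gamma members, and Pcdhac1 at 7.503 and Pcdhac2 at 7.81 within that of the alternate alpha members, all below the last alternate member of their cluster. C-type members lie farthest downstream, so their levels did not continue the climb of the alternate members.

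Pcdhgc3, which is known to bind the Wnt pathway scaffold Axin1 and to promote dendrite branching, was at 85.8, 84.0 and 91.6 CPM in WT and 76.8, 86.9 and 75.1 CPM in cKO. The groups overlapped at cKO replicate 2 (log2 fold change -0.13, 95% interval -0.32 to 0.053, adjusted p = 0.622). Pcdhgc4, the isoform that neurons need for survival during development, was at 72.1, 75.0 and 81.9 CPM in WT and 64.0, 74.6 and 66.5 CPM in cKO, again with cKO replicate 2 among the WT values (log2 fold change -0.16, 95% interval -0.36 to 0.036, adjusted p = 0.542). Pcdhgc5, a late postnatal isoform found at synapses, was at 83.3, 86.2 and 89.9 CPM in WT and 75.8, 92.7 and 88.7 CPM in cKO. Its cKO values lay on both sides of the WT range and the interval was centred near 0 (log2 fold change -0.014, 95% interval -0.20 to 0.17, adjusted p = 0.973).

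Pcdhac1 was at 19.9, 22.3 and 16.5 CPM in WT and 16.5, 15.6 and 18.8 CPM in cKO, with cKO replicates 1 and 3 inside the WT range (log2 fold change -0.20, 95% interval -0.54 to 0.13, adjusted p = 0.677). Its log2 fold change was -0.098 without WT replicate 2 and -0.32 without WT replicate 3. Pcdhac2, which serotonergic neurons use to space their axons, was at 24.8, 18.8 and 22.3 CPM in WT and 19.9, 24.7 and 23.2 CPM in cKO, and the groups overlapped fully (log2 fold change 0.040, 95% interval -0.27 to 0.35, adjusted p = 0.948). C-type members summed to 286, 286 and 302 CPM in WT and 253, 294 and 272 CPM in cKO, a difference of -6.26% with cKO replicate 2 inside the WT range. Their share of alpha counts was 19.0%, 21.3% and 18.9% in WT and 17.4%, 19.5% and 20.2% in cKO, with 95% Wilson intervals (counting error only) that run from 15.5% to 23.5% in all. Of gamma counts it was 15.5%, 15.3% and 16.8% in WT and 15.5%, 15.9% and 15.1% in cKO (14.4% to 17.5%). Neither share separated the genotypes, and WT replicate 3 was the highest for gamma.

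In the gamma cluster 15 of 22 members were negative with a median of -0.030, but with scaling by library size alone 10 of 22 were negative with a median of 0.0029, and without cKO replicate 1 the median was 0.042. Without cKO replicate 2 it was -0.10, with 17 of 22 negative, and without cKO replicate 3 it was -0.057. All 22 intervals lay within 2-fold. All 7 B members were negative, from -0.22 to -0.021 with a median of -0.13, although 5 of 7 were with scaling by library size alone and 4 of 7 without cKO replicate 1 or with replicates 2 and 3 only. Of 12 A members, 7 were positive (9 with scaling by library size alone), with a median of 0.015, and the difference between A and B members was not tested. B members summed to 541, 570.1 and 528 CPM in WT and 455, 542 and 513 CPM in cKO (546 ± 21.5 against 503 ± 44.2 CPM, SD, n = 3, a difference of -7.90%), so cKO replicate 2 lay inside the WT range. A members summed to 779 ± 10.98 against 769 ± 43.1 CPM (-1.27%) and gamma C-type members to 250.0 ± 11.9 against 234 ± 19.0 CPM (-6.51%).

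Pcdhgb6, the member of smallest p in the cluster, was at 114, 120.2 and 109 CPM in WT and 83.3, 109.6 and 102 CPM in cKO. All cKO libraries except replicate 2 lay below WT (log2 fold change -0.22, 95% interval -0.41 to -0.026, adjusted p = 0.341), and without cKO replicate 1 the log2 fold change was -0.11. Pcdhgb5 was at 73.4, 83.6 and 77.3 CPM in WT and 67.3, 71.8 and 67.4 CPM in cKO, with every cKO library below every WT library (log2 fold change -0.18, 95% interval -0.37 to 0.0070, adjusted p = 0.448). The other B members with no overlap, chosen here after their values were seen, were Pcdhgb2 (log2 fold change -0.13, adjusted p = 0.656) and the pseudogene Pcdhgb8 (log2 fold change -0.13, adjusted p = 0.619).

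Pcdhga12, the most abundant member of the family per kb, was at 147, 156 and 149 CPM in WT and 135, 143 and 141 CPM in cKO. Its cKO values were all below WT, by a small amount (log2 fold change -0.11, 95% interval -0.27 to 0.055, adjusted p = 0.650). Pcdhga11 was at 108, 122 and 115 CPM in WT and 107, 115 and 119 CPM in cKO, and the groups overlapped (log2 fold change -0.023, 95% interval -0.20 to 0.15, adjusted p = 0.947). Pcdhga10 was at 91.9, 111 and 97.7 CPM in WT and 95.1, 104 and 81.0 CPM in cKO, with the lowest value in cKO replicate 3 and the highest in WT replicate 2 (log2 fold change -0.10, 95% interval -0.30 to 0.094, adjusted p = 0.728). Without 1 library its log2 fold change ran from -0.19 to -0.011. These 3 genes are the last A members before the C-type exons, and exons of the opposite-strand gene Gm26672 overlap all of them.

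**Figure D3:**
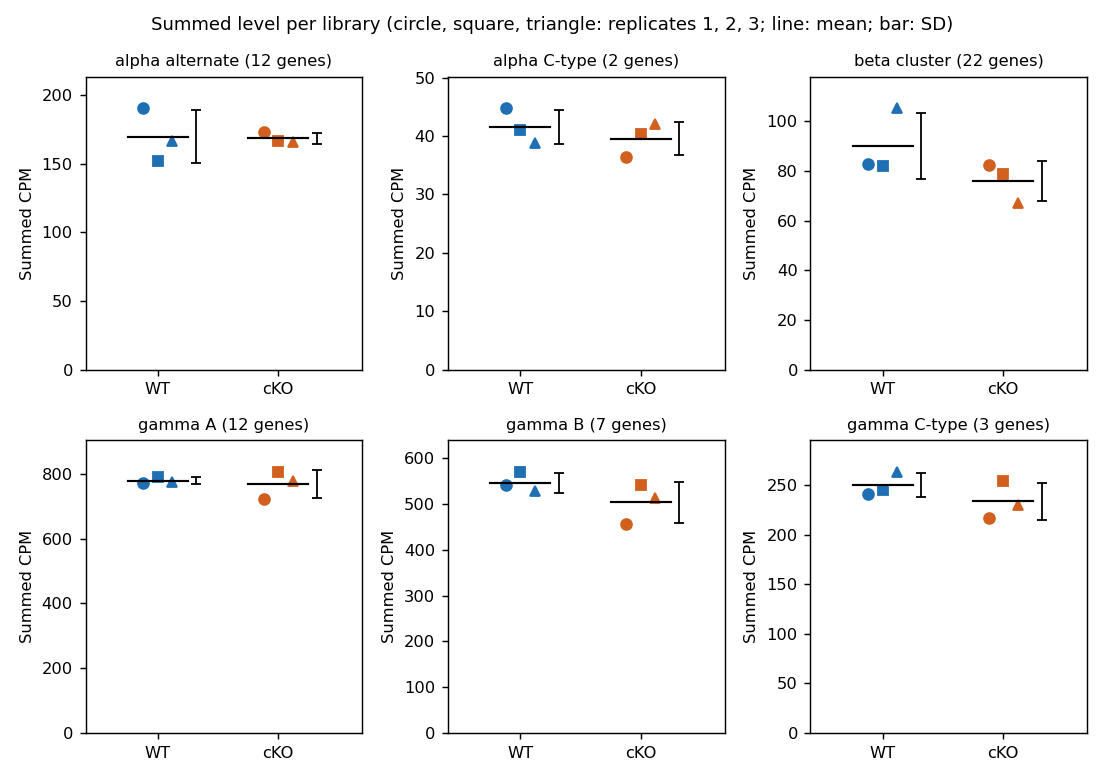
Summed CPM of the alternate alpha, alpha C-type, beta, gamma A, gamma B and gamma C-type members in each library (points), with the mean (line) and the SD (bar) of 3 libraries per genotype, on axes that start at 0. The genotypes overlap in each panel, and WT replicate 3 is the highest beta library.

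In the alpha cluster 8 of 13 tested members were positive and 5 negative, with a median of 0.024, and all 13 intervals lay within 2-fold. The sign of the median changed without WT replicate 2 (-0.058), cKO replicate 1 (-0.013) or cKO replicate 2 (-0.026). The cluster summed to 235, 193 and 205 CPM in WT and 209, 207 and 208 CPM in cKO (211 ± 21.4 against 208 ± 1.40 CPM, SD, n = 3, a difference of -1.49%), with WT replicate 1 the highest and WT replicate 2 the lowest of all libraries. The 3 cKO sums lay within the WT range.

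Pcdha12 was at 28.3, 20.6 and 26.1 CPM in WT and 29.2, 28.9 and 22.2 CPM in cKO, with overlap of the groups (log2 fold change 0.100, 95% interval -0.21 to 0.41, adjusted p = 0.851). Pcdha10 was at 21.8, 20.2 and 22.9 CPM in WT and 24.0, 21.8 and 28.3 CPM in cKO, and only cKO replicate 2 lay inside the WT range (log2 fold change 0.19, 95% interval -0.11 to 0.49, adjusted p = 0.666), with a log2 fold change of 0.084 without cKO replicate 3. Pcdha11 was at 21.3, 18.8 and 25.9 CPM in WT and 20.4, 23.01 and 23.9 CPM in cKO, with WT replicates at both ends (log2 fold change 0.024, 95% interval -0.29 to 0.33, adjusted p = 0.973). None of these downstream members passed the threshold.

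Pcdha7 and Pcdha9 were the alpha members without overlap, both lower in cKO. Pcdha7 was at 16.2, 14.9 and 14.7 CPM in WT and 14.1, 11.4 and 10.9 CPM in cKO (log2 fold change -0.32, 95% interval -0.70 to 0.049, adjusted p = 0.512). Pcdha9 was at 23.6, 18.3 and 18.3 CPM in WT and 17.4, 15.8 and 17.5 CPM in cKO, and WT replicate 1 stood well above the other libraries (log2 fold change -0.24, 95% interval -0.57 to 0.085, adjusted p = 0.6001). Pcdha2, near the upstream end, had the highest fold change of the 49 tested members, at 8.61, 4.60 and 4.13 CPM in WT and 8.92, 7.72 and 6.16 CPM in cKO. WT replicate 1 lay among the cKO values, and the interval reached both sides of 0 (log2 fold change 0.41, 95% interval -0.17 to 0.99, adjusted p = 0.624). The log2 fold change of Pcdha2 was 0.80 without WT replicate 1 and 0.21 without WT replicate 3, and that of Pcdha9 was -0.11 without WT replicate 1.

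In the beta cluster 10 of 14 tested members were negative, with a median of -0.28, and 8 of 14 intervals lay within 2-fold. The same numbers were negative under the other scalings, while without WT replicate 3 the median was -0.098. The 22 members summed to 82.8, 81.9 and 105 CPM in WT and 82.3, 78.6 and 66.9 CPM in cKO (89.95 ± 13.1 against 76.0 ± 8.01 CPM, SD, n = 3, a difference of -15.6%). WT replicate 3 was the highest and cKO replicate 3 the lowest library, while WT replicates 1 and 2 and cKO replicate 1 lay within 1 CPM of each other. The log2 ratio of the sums was -0.24, and without WT replicate 3 it was -0.12.

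Pcdhb21 had the lowest fold change of the 49 tested members and was at 3.48, 3.90 and 5.83 CPM in WT and 2.30, 1.85 and 2.77 CPM in cKO. The groups did not overlap, at 12 to 48 counts per library (log2 fold change -0.94, 95% interval -1.70 to -0.18, adjusted p = 0.288). Pcdhb22, its neighbour at the downstream end, was at 8.01, 5.71 and 10.1 CPM in WT and 6.47, 4.79 and 4.31 CPM in cKO, and cKO replicate 1 lay above the lowest WT library (log2 fold change -0.61, 95% interval -1.17 to -0.052, adjusted p = 0.366), with a log2 fold change of -0.39 without WT replicate 3. Pcdhb17 was at 11.8, 10.7 and 11.5 CPM in WT and 8.92, 9.42 and 8.16 CPM in cKO, with all cKO values below WT (log2 fold change -0.36, 95% interval -0.78 to 0.058, adjusted p = 0.515). Each of these values rested on few counts, and none passed the adjusted threshold.

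Pcdhb14 was at 9.37, 8.78 and 15.8 CPM in WT and 9.64, 10.7 and 7.85 CPM in cKO, where WT replicate 3 stood apart from the other 5 libraries (log2 fold change -0.28, 95% interval -0.76 to 0.20, adjusted p = 0.694). Pcdhb16 was at 9.52, 10.3 and 10.4 CPM in WT and 9.93, 8.34 and 6.62 CPM in cKO, with cKO replicate 1 inside the WT range (log2 fold change -0.28, 95% interval -0.73 to 0.17, adjusted p = 0.670), and the log2 fold change was -0.43 without cKO replicate 1 and -0.14 without cKO replicate 3. Pcdhb19 was at 5.59, 6.55 and 8.25 CPM in WT and 5.61, 9.73 and 6.62 CPM in cKO, and the highest value was cKO replicate 2 (log2 fold change 0.095, 95% interval -0.44 to 0.63, adjusted p = 0.925). Together with Pcdhb17 these are the beta members of highest CPM, and all lie in the downstream part of the cluster.

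The 9 members below the filter were Pcdha4, Pcdhb1 to Pcdhb6, Pcdhb8 and Pcdhb10, with at most 22 counts in any library. They are reported by level alone. Pcdhb4, chosen here after its values were seen, was the 1 untested member whose groups did not overlap, at 0.604, 0.697 and 0.728 CPM in WT and 3.17, 0.772 and 1.08 CPM in cKO, with cKO replicate 1 far above the other libraries. Among tested members the groups did not overlap for 9 of 49, all with cKO lower (6 of 49 with scaling by library size alone), beside 16.3% of all tested genes in either direction and 8.39% with cKO lower. These were Pcdha7, Pcdha9, Pcdhb11, Pcdhb17, Pcdhb21, Pcdhgb2, Pcdhgb5, Pcdhgb8 and Pcdhga12. Within a cluster, log2 fold change and chromosome order were weakly and negatively related, with rho of -0.34 over 11 alternate alpha, -0.44 over 14 beta and -0.31 over 19 alternate gamma members, a description with no p.

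**Figure D4:**
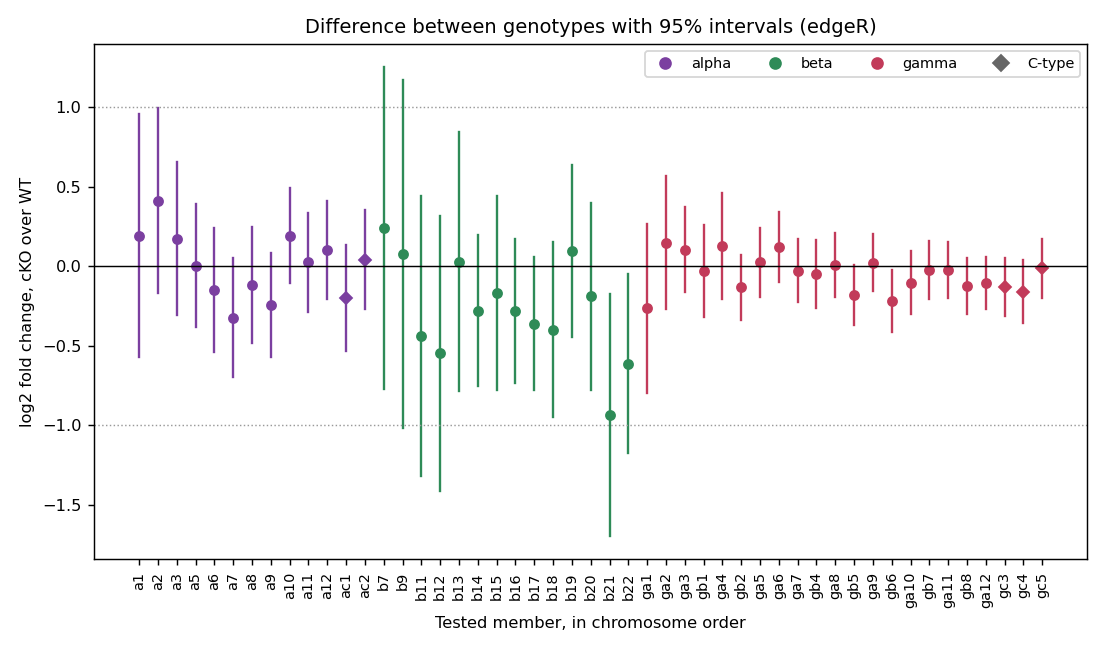
Log2 fold change of cKO over WT (points, C-type members as diamonds) with 95% intervals from edgeR for the 49 tested members in chromosome order, with dotted lines at 2-fold. Intervals are narrow in the gamma and wide in the beta cluster, and those of Pcdhb21, Pcdhb22 and Pcdhgb6 lie below 0.

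Among 28 listed regulators of these promoters, all tested and all within 2-fold, 1 was called, beside 0.579% of all tested genes. Atf7ip, a partner of the histone H3 lysine 9 methyltransferase Setdb1, was at 157, 165 and 163 CPM in WT and 118, 127 and 135 CPM in cKO, and the groups did not overlap (log2 fold change -0.35, 95% interval -0.52 to -0.18, adjusted p = 0.0394). The call was lost with scaling by library size alone (adjusted p = 0.0622), without WT replicate 2 (0.153), WT replicate 3 (0.177) or cKO replicate 1 (0.332), with replicates 2 and 3 only (0.200) and with limma-voom (0.0691). Of the 28, 9 were positive and 19 negative, with a median of -0.043, and 4 of 28 had an unadjusted p below 0.05, beside 11.9% of all tested genes. Ctcf, whose protein anchors the promoter to enhancer loops, was at 75.9, 89.4 and 74.7 CPM in WT and 64.3, 79.5 and 71.4 CPM in cKO (log2 fold change -0.16, 95% interval -0.36 to 0.048, adjusted p = 0.577). Values for Setdb1 (log2 fold change 0.14, adjusted p = 0.599), the chromosomal silencer Smchd1 (log2 fold change 0.012, adjusted p = 0.985) and the DNA methyltransferase Dnmt3b (log2 fold change 0.11, adjusted p = 0.921) were likewise past no threshold. Smc1a, a cohesin subunit chosen here after its values were seen, was not called in the fit over all 6 libraries. Smc1a was at 84.8, 98.1 and 88.9 CPM in WT and 65.8, 64.7 and 79.6 CPM in cKO (log2 fold change -0.37, 95% interval -0.57 to -0.17, adjusted p = 0.0799). It was called with DESeq2 (adjusted p = 0.0494), and by edgeR with no filter on low counts (0.0199), without WT replicate 1 (0.0293) and without cKO replicate 3 (0.0405). Mau2, a listed regulator also chosen after its values were seen, went the other way with overlap of the groups (log2 fold change 0.28, 95% interval 0.094 to 0.46, adjusted p = 0.169).

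The 30 listed partners include genes whose products bind the cytoplasmic ends, act on actin or cleave the proteins. Of the 30, 29 were tested and none was called by edgeR or limma-voom, with 18 positive, 11 negative and a median of 0.063. An unadjusted p below 0.05 was found for 3 of 29, beside 11.9% of all tested genes. DESeq2 gave an adjusted p to 13 of them. The 2 of smallest p were Rock2, which DESeq2 did call (adjusted p = 0.0487), and Nlgn2. Rock2, a kinase of actin contraction, was at 189, 181 and 167 CPM in WT and 229, 196 and 233 CPM in cKO, with all cKO values above WT (log2 fold change 0.30, 95% interval 0.12 to 0.47, adjusted p = 0.111). Nlgn2, a postsynaptic adhesion protein of inhibitory synapses, was at 193, 176 and 170.1 CPM in WT and 204, 211 and 209.8 CPM in cKO, again without overlap (log2 fold change 0.21, 95% interval 0.053 to 0.38, adjusted p = 0.244). The other listed subunits of PRC2, Ezh2 (log2 fold change -0.100, adjusted p = 0.837), Eed (log2 fold change -0.47, adjusted p = 0.105) and Suz12 (log2 fold change -0.068, adjusted p = 0.862), were not called. Eed was at 32.4 to 37.3 CPM in WT and 22.2 to 26.9 CPM in cKO, without overlap, while the groups overlapped for Ezh2 and Suz12.

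None of 12 tested genes within or beside the clusters was called by edgeR, nor by limma-voom, while DESeq2 gave an adjusted p to only 2 of them. Of the 12, 9 were negative, beside 51.2% of all tested genes, with a median of -0.061, and 2 had an unadjusted p below 0.05, beside 11.9%. Zmat2, upstream of the alpha cluster (36793923 to 36799660), was at 22.2, 26.6 and 22.3 CPM in WT and 19.4, 17.4 and 18.3 CPM in cKO, with cKO below WT throughout (log2 fold change -0.37, 95% interval -0.67 to -0.061, adjusted p = 0.303). Taf7, a subunit of the general transcription factor TFIID that lies between the beta and gamma clusters (37640491 to 37644204), was at 13.6, 16.7 and 16.4 CPM in WT and 12.2, 9.73 and 12.2 CPM in cKO, also without overlap (log2 fold change -0.45, 95% interval -0.83 to -0.073, adjusted p = 0.310). Of the 12 genes, 3 had every cKO library below every WT library and 0 had every cKO library above. The third was Diaph1, at 62.3 to 70.3 CPM in WT and 57.7 to 62.0 CPM in cKO (log2 fold change -0.15, adjusted p = 0.572). Over all tested genes, 8.39% had every cKO library below every WT library.

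**Figure D5:**
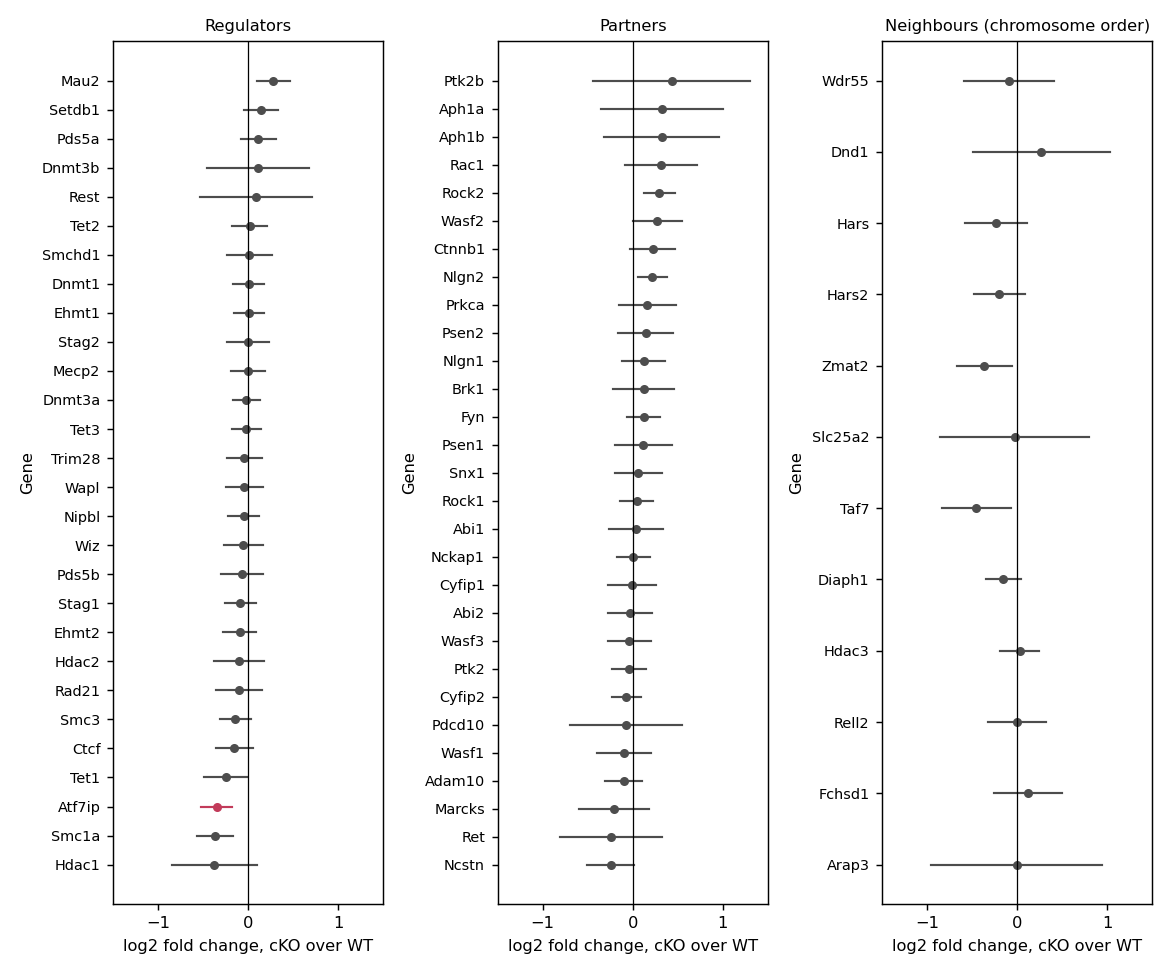
Log2 fold change of cKO over WT with 95% intervals from edgeR for 28 regulators and 29 partners, ordered by value, and for 12 neighbouring genes in chromosome order. Atf7ip, in red, is the gene called, and most intervals cross 0.

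Markers of other cell types were present in all libraries at levels that vary between them, and their part in the member values was not tested. The 8 oligodendrocyte markers summed to 236 to 429 CPM in WT and 293 to 660 CPM in cKO, the 5 Purkinje cell markers to 427 to 613 and 370.4 to 540 CPM, and the 7 astrocyte and Bergmann glia markers to 532 to 576 and 464 to 576 CPM. The 5 inhibitory interneuron markers summed to 65.9 to 77.0 CPM in WT and 62.1 to 81.3 CPM in cKO, and the 3 unipolar brush cell markers to 52.9 to 65.4 and 57.3 to 73.2 CPM. The 5 microglia markers summed to 16.1 to 29.5 and 21.2 to 24.8 CPM, the 6 vessel and meninges markers to 8.46 to 10.9 and 6.33 to 9.23 CPM, and the 3 choroid plexus markers to 0.243 to 0.418 and 0.154 to 0.863 CPM. No marker of these lists was at 0 in all libraries, the groups overlapped for each sum, and no tested marker was called outside the granule cell list, where Neurod1 was higher (log2 fold change 1.11, adjusted p = 8.03e-10). Counts were too low to test 1 of the 3 unipolar brush cell, 2 of the 5 microglia, 4 of the 6 vessel and meninges and all 3 choroid plexus markers.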

How the data were processed

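The authors deposited 1 table of raw counts per gene, with a column for each library. Subread and mm10 are named in the submitters' processing notes. The sources used here do not state its version, the annotation, strand use or the handling of multi-mapping reads. Per the labels' protocols, RNA of sorted, fixed nuclei was made into libraries with a NEBNext Ultra II kit. Of 24594 entries, 24570 matched RefSeq by gene identifier and 24 did not.

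Counts were filtered (filterByExpr), scaled (TMM factors 0.982 to 1.02) and tested with robust quasi-likelihood fits in edgeR 4.0.16 (R 4.3.3), two-sided, over all 6 libraries with genotype as the only term, and adjusted over 13115 genes. The test was checked on simulated data with changes of 2-fold or more in genes above 3 CPM, and not for smaller changes or lower levels. Some tested beta members lie below that level. Sums of members carry no test. Own exons are first exons of GENCODE vM21 transcripts of the same gene, or the RefSeq span of beta genes. Replicates differed by more than sampling noise (chi-square over degrees of freedom of 4.03 to 5.002). Members, gene lists and tests were chosen with earlier results of these data known. Named were Ezh1, the C-type members, the 4 of highest CPM and the 3 of smallest p per cluster, and called or the 2 smallest-p listed genes; others were chosen after their values were seen. Alternatives were other scalings (library size, DESeq2 size factors, 4 top entries left out), filters, DESeq2 1.42.0, limma-voom 3.58.1, a replicate block, a term for replicate 1, replicates 2 and 3 only, and leaving out each library.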

Additional observations from a re-analysis of the deposited data

How the results depend on the processing

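No clustered protocadherin was called under any of the 16 alternatives; the smallest adjusted p was 0.146 (Pcdhgb6 without cKO replicate 2), and DESeq2 gave adjusted values to 17 of 49 members only. The genes called over the table, 76, became 277 with no filter on low counts, 115 with DESeq2, 42 with limma-voom, 125 with a term for replicate 1, 43 with replicates 2 and 3 only, and 13 to 249 without 1 library. Members at an unadjusted p under 0.05, 3, became 1 with DESeq2 and 1 to 5 without 1 library (5 without WT replicate 1, 1 without WT replicate 3). Listed regulators and partners called, 1, became 0 with library size alone, limma-voom, the replicate block or replicates 2 and 3 only, 3 with no filter or DESeq2, and 0 to 2 without 1 library; Rock2 was called with no filter (adjusted p = 0.0425), with DESeq2 (0.0487) and without cKO replicate 2 (0.0255), and Smc1a with DESeq2, with no filter, without WT replicate 1 and without cKO replicate 3. The members' median was 0.016 with replicates 2 and 3 only and -0.13 to -0.060 without 1 library. The sign of uncalled members turned for Pcdhgc5 (0.018 with library size alone, 0.042 with replicates 2 and 3 only, -0.074 to 0.068 without 1 library) and Pcdhga11 (0.0093 with library size alone, -0.063 to 0.022 without 1 library). Without 1 library it also turned for Pcdhac2 (-0.058 to 0.13), Pcdha12 (-0.020 to 0.22), Pcdha11 (-0.077 to 0.16), Pcdhb14 (-0.43 to 0.049) and Pcdhb19 (-0.16 to 0.27). The cause was not tested. Deviations from the group mean correlated at 0.15, 0.0053 and -0.038 between same-numbered libraries (replicates 1, 2 and 3). Between unlike-numbered libraries the correlations ran from -0.10 to 0.11. Only the replicate 1 libraries, which share high Xist, lay outside that range, so these values do not settle whether the numbers pair libraries. With a replicate block 49 genes were higher and 41 lower, no member was called, 31 of 49 were negative, and Atf7ip was at adjusted p = 0.0509. Depth limits the beta cluster most, where the median SE of a log2 fold change was 0.29, against 0.096 in the gamma cluster.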
